A study of Homo sapiens with 6 samples.

Results

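The hnRNP, PTB and SR splicing regulators described here are 39 of the 60651 genes counted. They were chosen by family name, with earlier results of these data known. They comprise 20 hnRNP genes, 3 PTB genes (PTBP1 to PTBP3), 2 poly(C)-binding protein genes (PCBP1 and PCBP2), 12 SR protein genes (SRSF1 to SRSF12) and 2 TRA2 genes. RNA came from SK-N-AS, an established human neuroblastoma line without MYCN amplification. The cells carried a tetracycline repressor and a MYCN transgene that tetracycline switches on, and single clones were kept under G418 and blasticidin, so the control cells carried the transgene as well. The 3 control libraries, labelled ETOH, and the 3 MYCN-induced libraries, labelled Tet, were made after 120 h from total RNA depleted of ribosomal RNA. The comparison asks whether the RNA level of these regulators differed once MYCN had been switched on in the same cell line. Only the induced libraries are labelled as given tetracycline, so an effect of the drug itself cannot be told apart from one of MYCN.

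Splicing regulators decide which exons enter the mature mRNA. SR proteins carry an arginine- and serine-rich domain, bind enhancer sequences in exons and help the spliceosome to recognise them. hnRNP proteins coat nascent RNA, and many of them weaken exon recognition or counteract SR proteins. PTB proteins bind pyrimidine-rich tracts, and PTBP1 gives way to PTBP2 as neurons form. Many of these genes limit their own output through exons whose inclusion sends the transcript to nonsense-mediated decay (NMD). In other tumour cells MYC proteins have been described as activators of PTBP1, HNRNPA1, HNRNPA2B1 and SRSF1. Several RNA-binding proteins of these families also bear on whether exons are joined in linear or circular form, the subject of the study these libraries come from.

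The libraries held 64500589 to 102249336 counted read pairs, and no member had fewer than 1164 counts in any library. MYCN was at 30.28, 35.48 and 32.38 CPM (counts scaled to a common library total, normalized for library composition) in control replicates 1, 2 and 3. It was at 210.7, 221.3 and 198.6 CPM in MYCN-induced replicates 1, 2 and 3, so the induced libraries carried their label, although counts of the transgene and of the endogenous gene are not separated. On the first principal component the controls lay between -40.3 and -25.9, MYCN-induced replicates 1 and 2 at 14.4 and 13.1, and MYCN-induced replicate 3 apart from both at 69.1. For this reason each main result is given with and without that library. The adrenergic neuroblastoma marker HAND2 (349.3 to 558.9 CPM) was high in every library, TH stayed at or below 1.578 CPM, and VIM, a mesenchymal marker, lay between 360.4 and 474.5 CPM. CD44, another mesenchymal marker, and CD3E, a T cell marker, were listed at 0 counts in all 6 libraries. Few identity markers were called: edgeR called 1 of 8 tested adrenergic markers and 1 of 7 mesenchymal markers lower, and 0 higher in both lists. Of all genes it called 2.38% lower and 1.02% higher. The adrenergic median log2 fold change was -0.32, with 3 of 8 above 0. Without MYCN-induced replicate 3 edgeR called 3 adrenergic markers lower, 1 mesenchymal marker lower and 3 mesenchymal markers higher. The background was then 4.44% of genes lower and 3.68% higher. The part of these markers in the values of the members was not tested. In bulk RNA, fewer cells with a transcript and less RNA of it per cell cannot be told apart.

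No member passed the test when all 6 libraries were compared. All 39 members passed the filter on low counts, and edgeR's quasi-likelihood test with Benjamini-Hochberg adjustment over 29086 genes called 0 of them higher and 0 lower at an adjusted p of 0.05, with DESeq2 also at 0 and 0. Among all genes tested, edgeR called 1.02% higher and 2.38% lower, and DESeq2 called 3.11% higher and 4.12% lower. At an unadjusted p under 0.05, edgeR gave 3 members higher (HNRNPAB, PTBP3 and HNRNPF) and 0 lower, against 8.13% and 10.6% of all genes, so neither count exceeded the background. The fold changes were small. On the log2 scale they ran from -0.15 for SRSF2 to 0.32 for PCBP1, with a median of 0.05 against -0.00 over all genes, and 28 of 39 lay above 0 (71.8%, against 49.9% of all genes). The number above 0 was 24 with upper-quartile scaling and 21 without MYCN-induced replicate 2. The 95% interval of the difference stayed within 1.5-fold in either direction for 37 of 39 members, as it did for 48.2% of all genes tested. The width of an interval depends on the counts, and all genes tested include genes with far fewer counts than any member. The 2 shares are therefore not like for like. It was also within 1.5-fold for 12 of 12 SR protein kinases and importins and 10 of 10 NMD factors. The intervals of PCBP1 and PTBP1 reached up to 1.6-fold and 1.56-fold, and all 39 stayed within 2-fold.

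Without MYCN-induced replicate 3 the same test called 7 members higher and 0 lower, against a background of 3.68% of genes higher and 4.44% lower. The 7 were HNRNPAB, HNRNPD, HNRNPF, HNRNPR, HNRNPU, PTBP3 and TRA2B. Their log2 fold changes lay between 0.23 and 0.37, and the median of all 39 members was 0.16, with 37 of 39 above 0 (94.9%, against 50.3% of all genes). With that library left out, 3 further fits chosen after seeing the data called 4 members higher with library size only (3.17% of all genes), 14 with DESeq2 (6.61%) and 10 with the replicate block (7.91%). Leaving out any of the other 5 libraries gave 0 calls. The call on this group of genes therefore rested on 1 library, which is described in its own right further on.

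**Figure D1:**
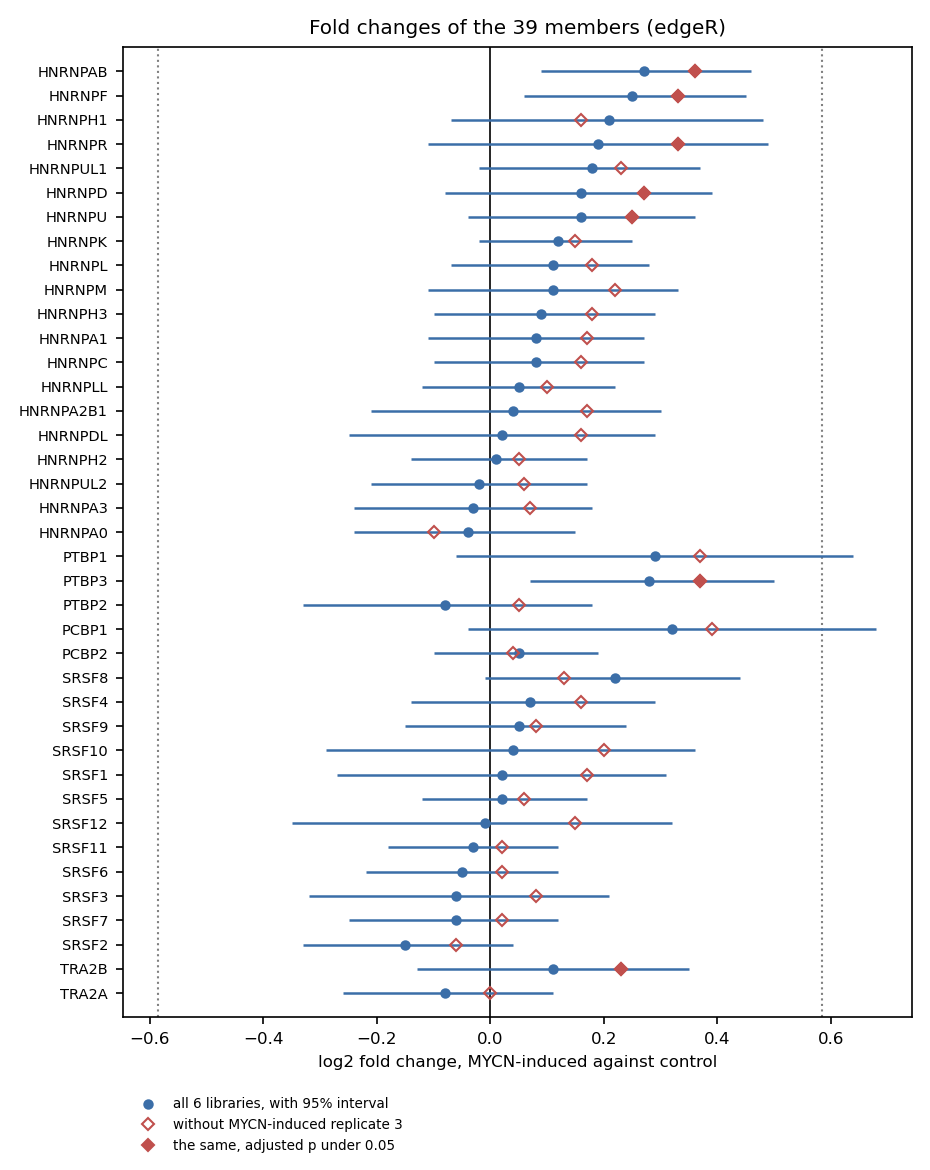
Log2 fold change of each member between MYCN-induced and control libraries (x axis), ordered by family, as filled circles with 95% intervals for all 6 libraries and diamonds for the comparison without MYCN-induced replicate 3. The dotted lines mark 1.5-fold, all circles lie between -0.15 and 0.32, and the 7 filled diamonds are the members called without that library.

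Promoter sequences show where the members differ in the E-box CACGTG, the sequence that dimers of MYC proteins with MAX bind best. RefSeq windows on GRCh38.p14, from 250 bases before to 50 bases after each transcript start, were matched for 36 of 39 members. HNRNPA1, SRSF2 and TRA2A had no window. CACGTG, which reads the same on both strands, occurred in 7 of these 36 genes (19.4%), against 8.77% of 27305 genes with a window. Counted by window, 15.7% of 51 member windows and 7.26% of all 35116 windows held it. All 7 were hnRNP genes (HNRNPA3, HNRNPD, HNRNPDL, HNRNPH2, HNRNPH3, HNRNPM and HNRNPUL1), out of 19 hnRNP genes with a window, and 0 of 11 SR genes held it. The background of all genes with a window was not limited to genes tested here and was not matched for base composition. The difference in shares was therefore not traced to these families as such. A match of letters is a description and does not show binding. Of the 7 genes called without MYCN-induced replicate 3, HNRNPD was the only one whose window held the motif.

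For 4 members 1 window each is printed 5′ to 3′ on the strand of the gene, with the E-box in capitals and positions counted from 1 at the transcript start and from -1 before it. HNRNPD (chr4:82373942-82374241, minus strand) and HNRNPDL (chr4:82430176-82430475, minus strand) are a related pair whose levels are compared later, and their motifs begin at -27 and -156. A second HNRNPDL window also holds the motif, at -127. HNRNPUL1 (chr19:41262307-41262606, plus strand) holds the motif downstream of its start, at 24, and its other 2 windows do not hold it. HNRNPAB (chr5:178204283-178204582, plus strand), the member with the smallest p, has a window without the motif.
HNRNPD: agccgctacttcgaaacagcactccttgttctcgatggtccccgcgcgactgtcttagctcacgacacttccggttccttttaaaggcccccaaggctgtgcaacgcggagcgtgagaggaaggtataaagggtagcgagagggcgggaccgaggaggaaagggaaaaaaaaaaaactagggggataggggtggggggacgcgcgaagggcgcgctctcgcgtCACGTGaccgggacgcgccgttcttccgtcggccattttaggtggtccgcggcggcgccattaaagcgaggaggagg
HNRNPDL: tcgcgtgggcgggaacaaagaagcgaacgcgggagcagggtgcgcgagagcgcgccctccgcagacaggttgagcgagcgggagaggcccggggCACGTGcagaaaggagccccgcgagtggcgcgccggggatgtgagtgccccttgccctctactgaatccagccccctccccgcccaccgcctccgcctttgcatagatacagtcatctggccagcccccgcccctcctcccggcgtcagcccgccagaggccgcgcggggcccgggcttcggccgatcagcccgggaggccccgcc
HNRNPUL1: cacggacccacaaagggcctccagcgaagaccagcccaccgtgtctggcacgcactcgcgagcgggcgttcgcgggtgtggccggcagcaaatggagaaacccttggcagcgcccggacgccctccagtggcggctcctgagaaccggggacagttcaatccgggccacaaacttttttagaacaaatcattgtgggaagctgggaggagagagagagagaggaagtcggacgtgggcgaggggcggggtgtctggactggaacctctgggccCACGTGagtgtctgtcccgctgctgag
HNRNPAB: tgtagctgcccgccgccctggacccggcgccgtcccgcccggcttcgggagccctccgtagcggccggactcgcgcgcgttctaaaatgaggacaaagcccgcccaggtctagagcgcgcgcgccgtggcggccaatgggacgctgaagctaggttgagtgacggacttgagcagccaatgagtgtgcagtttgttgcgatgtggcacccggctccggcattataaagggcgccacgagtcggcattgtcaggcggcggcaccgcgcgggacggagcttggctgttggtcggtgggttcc

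The members covered a wide range of levels, given here as CPM per kilobase of annotated exon so that genes can be compared. The control mean was highest for HNRNPA1, at 182 ± 3.76 (SD, n = 3), a shuttling repressor of exon inclusion. HNRNPA2B1 followed at 157 ± 2.96, then HNRNPK at 116 ± 0.906 and HNRNPA3 at 107 ± 0.491. These values rest on the union of all annotated exons, so a gene with many rarely used exons is placed too low. SRSF2, which recognises enhancers in exons, was the highest SR gene at 59.3 ± 0.994, and TRA2A reached 45.9 ± 1.52. At the low end stood SRSF8, an SR gene that arose as a copy of SRSF2, at 3.78 ± 0.0716, with SRSF12 at 4.2 ± 0.243 and PTBP2 at 5.09 ± 0.201. Over all 6 libraries the order of neighbours was clear at 7 of 38 steps and the values of the libraries overlapped at the others. The clear steps included HNRNPA2B1 above HNRNPK, HNRNPK above HNRNPA3, HNRNPD above SRSF2, PTBP3 above HNRNPLL and HNRNPLL above PTBP2. Together the 39 genes summed to 12800, 12900 and 12900 CPM in control replicates 1, 2 and 3. In induced replicates 1, 2 and 3 they summed to 14000, 14600 and 12000 CPM, a spread that straddles the controls. These sums are not shares of a library, since normalized CPM of all genes tested do not reach the same total. That total ran from 971000 in induced replicate 2 to 1070000 in induced replicate 3.

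**Figure D2:**
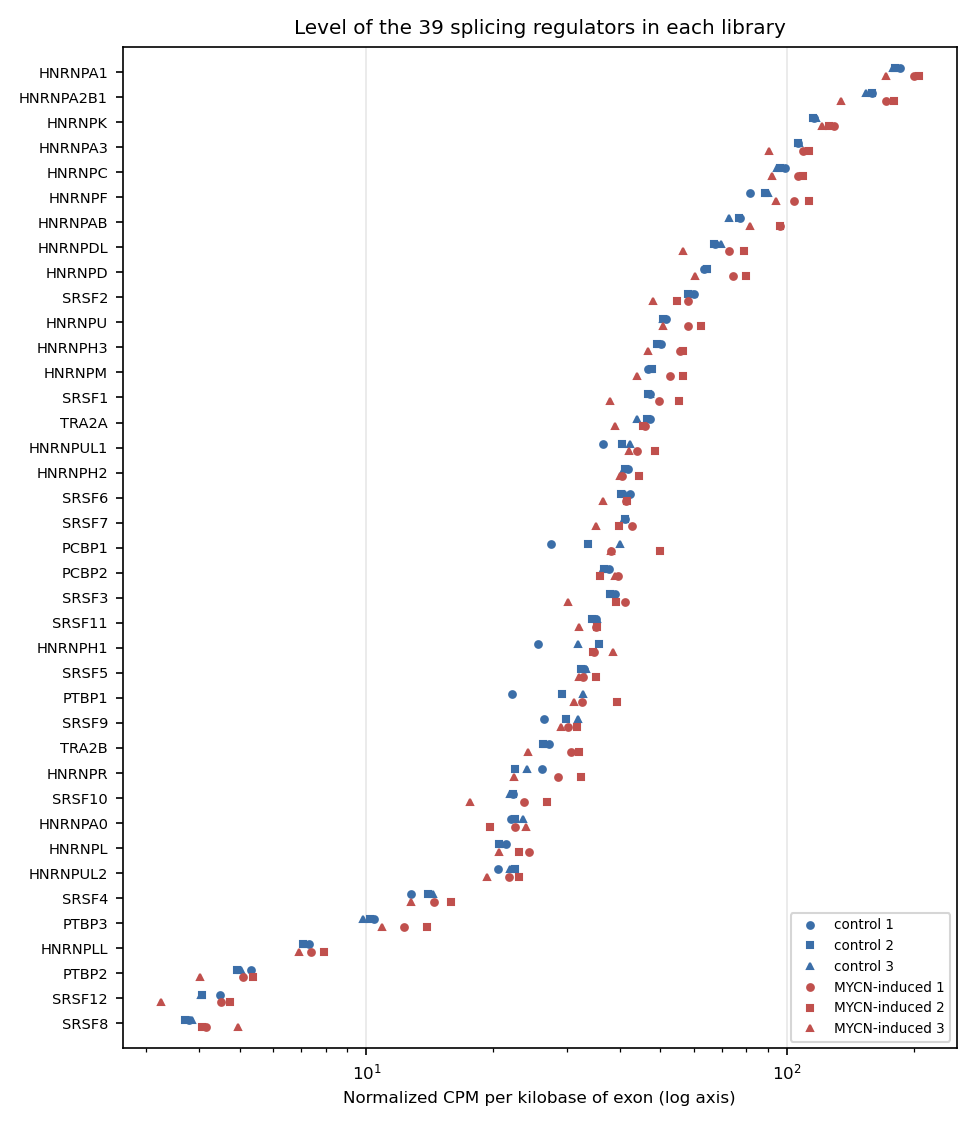
Level of each of the 39 members (y axis, ordered by mean) in normalized CPM per kilobase of exon (x axis, log scale), with controls in blue, induced libraries in red and a marker shape for each replicate number. HNRNPA1 lies at the top, SRSF8 at the bottom, and induced replicate 3 (red triangles) is the left-most point for most members.

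The hnRNP genes had small differences, mostly above 0, and none was called. Of the 20 genes, 17 had a log2 fold change above 0, the median was 0.10 and the range -0.04 to 0.27. The median was 0.07 with library size only or upper-quartile scaling and 0.12 with DESeq2. HNRNPAB (chr5:178204533-178211163, plus strand) encodes a single-stranded RNA and DNA binding protein of the A/B group. It was at 164.1, 162.6 and 153.9 CPM in the controls and at 203.9, 204.2 and 173.4 CPM in the induced libraries. All 3 induced libraries lay above all 3 controls, with replicate 3 the lowest of them. The difference was 1.21-fold (95% interval 1.06 to 1.38), with an edgeR adjusted p of 0.119. Without MYCN-induced replicate 3, HNRNPAB rose by a log2 fold change of 0.36 ± 0.05 (SE), with an adjusted p of 0.00924 in edgeR.

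HNRNPF (chr10:43385617-43409166, minus strand) binds runs of G near exons. It measured 265.3, 287.9 and 293.1 CPM in the controls and 336.7, 367.2 and 306 CPM in the induced libraries. Again the groups did not overlap. The log2 fold change was 0.25 ± 0.08 (SE), with an edgeR adjusted p of 0.154, and 0.33 without replicate 3, with an edgeR adjusted p of 0.0379. HNRNPK (chr9:83968083-83980616, minus strand), a KH-domain protein that binds C-rich RNA, was at 589.7, 584.7 and 593.9 CPM in the controls and at 657.1, 643 and 615.4 CPM in the induced libraries. Its 3 induced values were all above the controls, by 1.08-fold (95% interval 0.983 to 1.19), with an edgeR adjusted p of 0.361.

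HNRNPUL1, a relative of the scaffold protein HNRNPU, was at 244.3, 271 and 283.5 CPM in the controls and at 294.5, 325.5 and 282.1 CPM in the induced libraries. Control replicate 3 lay above induced replicate 3, so the groups overlapped, and edgeR's adjusted p was 0.312. HNRNPA1 (chr12:54280193-54287088, plus strand), the most abundant member, was at 1245, 1211 and 1196 CPM in the controls and at 1338, 1378 and 1150 CPM in the induced libraries. Induced replicates 1 and 2 were its highest libraries and induced replicate 3 its lowest, which left a 1.06-fold difference with an interval of 0.928 to 1.21 and an edgeR adjusted p of 0.653. HNRNPA2B1, its partner in the core particle, ran from 1939 to 2005 CPM in the controls and was at 2165, 2270 and 1687 CPM in the induced libraries. The 74 genes named as pseudogenes of HNRNPA1 held 4.25% of the counts of the gene and its pseudogenes, and the 16 of HNRNPA3 held 5.72%. Adding these counts back left the median of the 39 members at 0.05.

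Several further hnRNP genes shared the pattern of 2 high libraries and 1 low one. HNRNPD, also known as AUF1, which binds AU-rich elements, was at 443.4, 449.6 and 448.2 CPM in the controls and at 517.9, 557 and 421.8 CPM in the induced libraries. HNRNPU, a nuclear matrix protein, was at 1160, 1141 and 1138 CPM in the controls and at 1306, 1403 and 1138 CPM in the induced libraries. HNRNPR was at 228.5, 196.7 and 209.7 CPM in the controls and at 247.7, 281.1 and 194.6 CPM in the induced libraries. In all 3 genes replicates 1 and 2 exceeded every control and replicate 3 did not. These 3 genes were described because they were called without MYCN-induced replicate 3, with edgeR adjusted p-values of 0.0267, 0.0309 and 0.0491, and not for their values in all libraries. HNRNPH1, a G-run binder like HNRNPF, behaved otherwise, at 243.1, 339.7 and 301.4 CPM in the controls and at 328.6, 327.2 and 364.8 CPM in the induced libraries. Replicate 3 was its highest library and control replicate 1 its lowest. HNRNPH2, the X-linked copy, lay between 92.09 and 102.2 CPM in all 6 libraries, and 15.8% of its exon bases are shared with an annotated read-through from RPL36A. Its log2 fold change of 0.01 turned negative under library size and upper-quartile scaling (-0.02 in both).

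**Figure D3:**
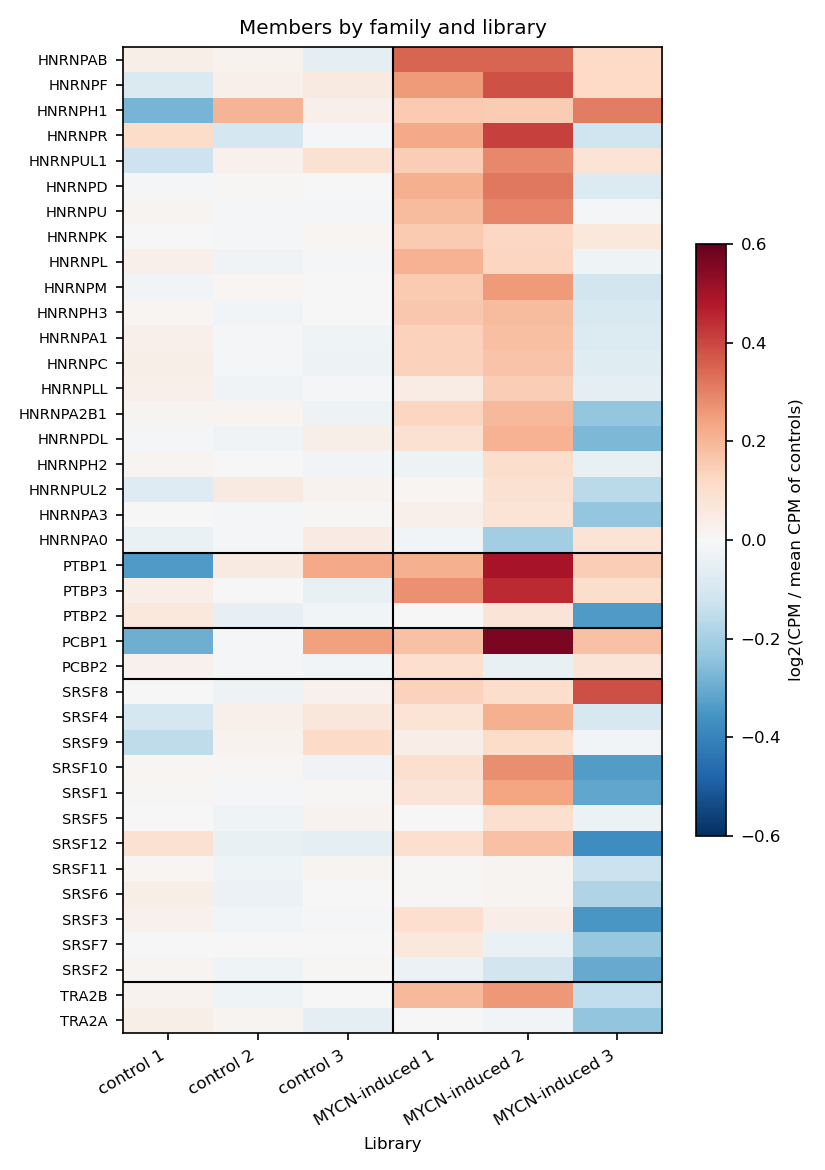
Log2 ratio of the CPM in each library to the mean CPM of the controls (colour scale) for each member (rows, grouped by family) and library (columns), with black lines between families and conditions. Induced replicates 1 and 2 are mostly red, whereas 26 of 39 members are lower in induced replicate 3 than in all other libraries.

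The PTB genes differed from each other. PTBP3 (chr9:112217716-112333664, minus strand), the family member first described in blood cells, was at 86.06, 83.67 and 81.08 CPM in the controls and at 101.1, 114.2 and 90.09 CPM in the induced libraries. All induced libraries were above all controls. The difference was 1.22-fold (95% interval 1.05 to 1.41), with an edgeR adjusted p of 0.149. Without MYCN-induced replicate 3 the log2 fold change was 0.37 ± 0.06 (SE), with an edgeR adjusted p of 0.0191. PTBP1 (chr19:797075-812327, plus strand), the widely expressed repressor of neuronal exons, was at 166.9, 219.1 and 246.7 CPM in the controls and at 244.2, 297.3 and 233.7 CPM in the induced libraries. Its controls spread widely, with control replicate 1 low, and the groups overlapped. The log2 fold change was 0.29 ± 0.15 (SE) with an edgeR adjusted p of 0.351, and it was 0.14 without control replicate 1 and 0.18 without MYCN-induced replicate 2. PTBP2 (chr1:96721665-96823738, plus strand), the neuronal form, was at 78.07, 72.36 and 73.96 CPM in the controls and at 74.86, 78.84 and 59.13 CPM in the induced libraries. Induced replicate 3 was below the other 5 libraries, which lay close together, and the log2 fold change of -0.08 became 0.05 without that library.

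The poly(C)-binding proteins act on mRNA stability and translation as well as splicing. PCBP1 (chr2:70087477-70089203, plus strand), a gene without introns, was at 47.53, 58.04 and 69.15 CPM in the controls and at 65.75, 86.12 and 65.87 CPM in the induced libraries. Its log2 fold change of 0.32 ± 0.16 (SE) was the largest of the 39 in the fit of all 6 libraries and came with overlapping groups and an edgeR adjusted p of 0.329. It was 0.19 without control replicate 1 and 0.18 without MYCN-induced replicate 2, where it was no longer the largest. The antisense gene PCBP1-AS1 covers 73.2% of its exon bases, and the header of the counts sets no strand option, so reads of the 2 genes cannot be told apart there. PCBP2 (chr12:53452102-53481162, plus strand) ranged from 290.1 to 298.8 CPM in the controls and was at 314.1, 284.5 and 309.6 CPM in the induced libraries. Its values lay on both sides of the controls, with an edgeR adjusted p of 0.765, and 32.7% of its exon bases overlap other genes.

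The SR genes showed no shared direction over the 6 libraries. Of the 12, 6 had a log2 fold change above 0, the median was 0.00, and it was -0.02 with library size only, -0.03 with upper-quartile scaling and 0.02 with DESeq2. Without MYCN-induced replicate 3 the median was 0.08 and 11 of 12 lay above 0, with 0 called. Without MYCN-induced replicate 2 it was -0.08 and 2 of 12 lay above 0. SRSF2 (chr17:76734115-76737333, minus strand) was the only member whose induced libraries were all below all controls, a pattern that 14.7% of all genes showed. It was at 178.8, 173.2 and 177.6 CPM in the controls and at 172.5, 163.3 and 143 CPM in the induced libraries. The gap between the closest libraries of the 2 groups was smaller than the spread within either group. The log2 fold change was -0.15 ± 0.08 (SE) with an edgeR adjusted p of 0.386, and -0.06 without replicate 3. MFSD11 on the opposite strand covers all of the 35.8% of SRSF2 exon bases that overlap other genes.

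SRSF8 (chr11:95066919-95071225, plus strand) went the other way. It was at 16.29, 15.96 and 16.58 CPM in the controls and at 17.94, 17.52 and 21.3 CPM in the induced libraries. All induced libraries exceeded all controls, and replicate 3 was here the highest. The difference was 1.16-fold (95% interval 0.993 to 1.36), with an edgeR adjusted p of 0.288. HNRNPAB, HNRNPF, HNRNPK, PTBP3 and SRSF8 were the 5 members with induced libraries all above the controls, 5 of 39 against 11.5% of all genes, a share near the background.

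SRSF1, the founding SR protein, was at 272.8, 269.3 and 272.6 CPM in the controls and at 286.9, 320.2 and 219 CPM in the induced libraries. Other genes overlap 35.1% of its exon bases, mostly an unnamed gene on the same strand, and pairs there were shared in fractions. SRSF3, the smallest SR protein, which also takes part in mRNA export, ran from 269.7 to 277.3 CPM in the controls and was at 292.8, 279.9 and 214.1 CPM in the induced libraries. SRSF10, a repressor of splicing when dephosphorylated, ran from 259.6 to 265 CPM in the controls and was at 281.4, 319.5 and 208.2 CPM in the induced libraries. In each of these 3 the controls were tight, induced replicates 1 and 2 lay above them and induced replicate 3 lay below. The remaining SR genes (SRSF4 to SRSF7, SRSF9, SRSF11 and SRSF12) had log2 fold changes between -0.06 and 0.07.

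The TRA2 genes assist SR proteins at enhancers. TRA2B (chr3:185914558-185938103, minus strand) was at 356.1, 344.2 and 351.1 CPM in the controls and at 400.7, 419.1 and 316.3 CPM in the induced libraries, and without replicate 3 its log2 fold change was 0.23 ± 0.05 (SE) with an edgeR adjusted p of 0.0304. TRA2A (chr7:23504780-23532041, minus strand) was at 165.4, 163.1 and 155.2 CPM in the controls and at 161.5, 159.5 and 136.9 CPM in the induced libraries. For TRA2B the first 2 induced libraries were above all controls, whereas for TRA2A they lay within the control range.

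Ratios between related members were compared over the 6 libraries as log2 ratios of counts per kilobase, for 11 pairs. With 3 libraries a group, the exact permutation test cannot give a two-sided p under 0.1. Only 2 pairs reached that value, each with an adjusted p of 0.55 over the 11 pairs. TRA2A over TRA2B was 0.79, 0.82 and 0.72 in the controls and 0.59, 0.50 and 0.69 in the induced libraries, a difference of -0.18. HNRNPDL over HNRNPD was 0.09, 0.06 and 0.12 in the controls and -0.03, -0.02 and -0.10 in the induced libraries, a difference of -0.14. In both pairs the induced libraries, replicate 3 included, were all below the controls. PTBP2 over PTBP1, the pair that changes as neurons form, was -2.06, -2.56 and -2.70 in the controls and -2.67, -2.88 and -2.95 in the induced libraries. The groups overlapped by 1 control, and the difference was -0.39 with an exact permutation p of 0.2, or -0.20 without control replicate 1. The differences of HNRNPH2 over HNRNPH1 (-0.21) and PCBP2 over PCBP1 (-0.28) were smaller than the range of their control libraries. The remaining 6 pairs differed by -0.08 to 0.02.

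**Figure D4:**
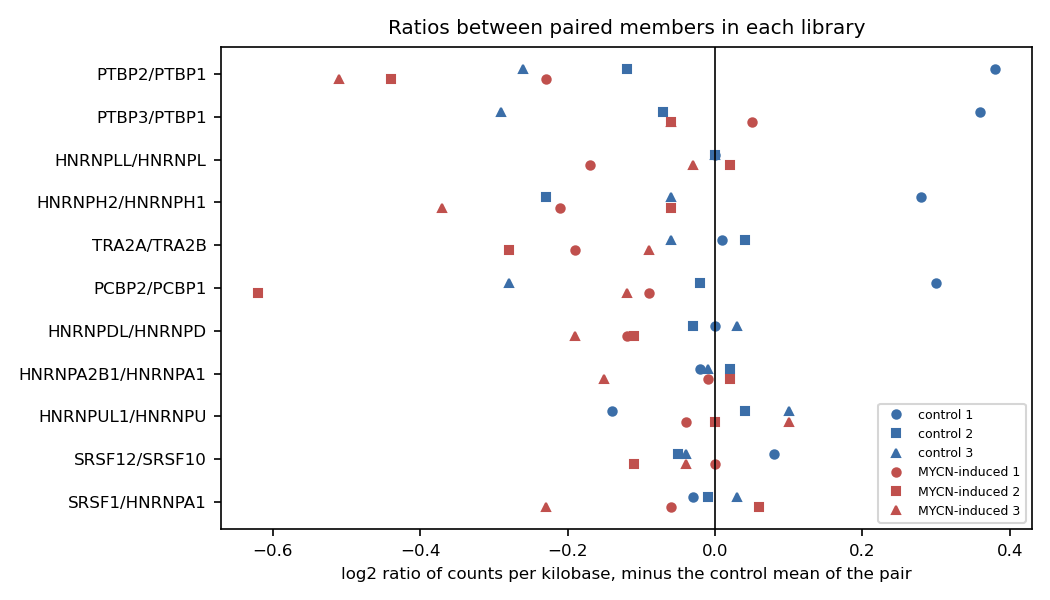
Log2 ratio of each of the 11 pairs in each library, minus the mean of its controls (x axis), with controls in blue and induced libraries in red. The red points of TRA2A/TRA2B and HNRNPDL/HNRNPD lie to the left of all blue points, and the PTBP2/PTBP1 controls spread more widely, with control replicate 1 to the right.

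Summed over genes, SR counts per kilobase stood at 0.281, 0.277 and 0.284 of the hnRNP sum in the controls and at 0.260, 0.255 and 0.254 in the induced libraries. The ratio was lower in every induced library than in every control, replicate 3 included. It is a description of the summed lists, without a test. In induced replicates 1 and 2 the hnRNP sum was 1450 and 1510 CPM per kilobase, above the 1310 of each control, while the SR sum was 378 and 385 against 365 to 372. In induced replicate 3 both sums were low, at 1260 for hnRNP and 319 for SR genes.

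MYCN-induced replicate 3 was below both other induced libraries for 34 of 39 members (87.2%, against 40.1% of all genes). It was the lowest of all 6 libraries for 26 of 39 (66.7%, against 27.0% of all genes), among them 14 of 20 hnRNP genes, 9 of 12 SR genes, both TRA2 genes and PTBP2, but neither PCBP gene. Its difference from the mean of the other induced libraries was -30.7% for SRSF10, -27.8% for SRSF1, -26.4% for HNRNPR, -25.4% for HNRNPDL and -25.2% for SRSF3. SRSF8, HNRNPA0, HNRNPH1 and PCBP2 were the exceptions that were higher there, by 20.1%, 13.9%, 11.3% and 3.43%. Counted against the range of the controls, 26 members were above it in induced replicate 1 (31.2% of all genes were), 31 in replicate 2 (32.1%) and 8 in replicate 3 (33.6%).

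Other gene lists stood apart in the same library. The 9 tested genes of the ATF4 stress response, which cells switch on when amino acids or mitochondrial function are limiting, had a median log2 ratio to the control mean of 1.08, 0.43 and 3.04 in induced replicates 1, 2 and 3. Proliferation genes (10 tested) stood at 0.10, 0.15 and -0.32, and MKI67, a marker of cycling cells, at 597.6, 614 and 286.5 CPM against 591.3 to 643.5 in the controls. The hnRNP median was 0.15, 0.18 and -0.06 and the SR median 0.07, 0.10 and -0.20 in the same libraries. MYCN itself was high in all 3. The part of stress, of proliferation, of tetracycline or of that library in the values of the members was not tested.

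**Figure D5:**
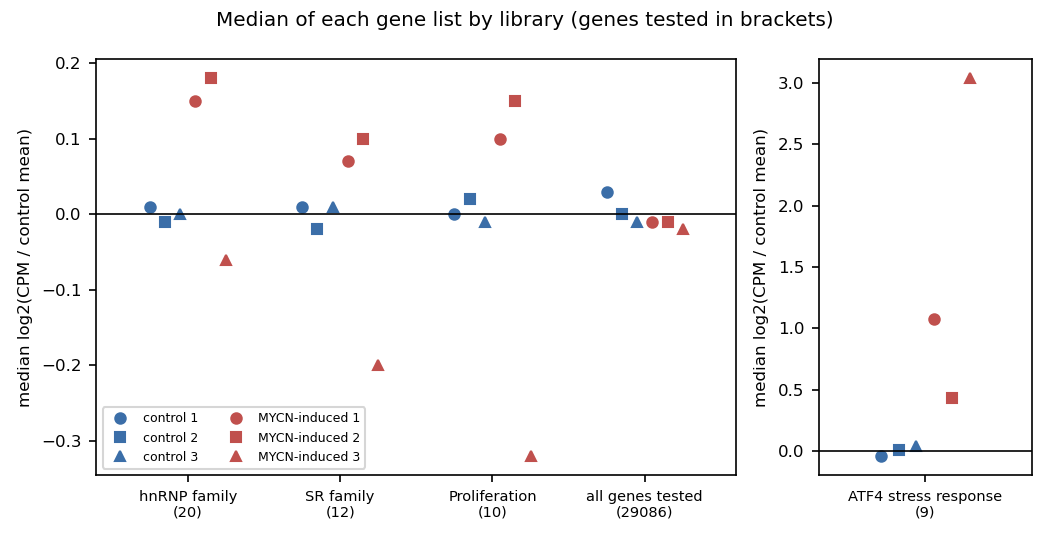
Median log2 ratio of CPM to the control mean (y axis) for the hnRNP, SR and proliferation genes, for all genes tested and, on its own scale, for the ATF4 stress list, by library. In induced replicate 3 (red triangles) the hnRNP, SR and proliferation medians lie at -0.06, -0.20 and -0.32 while the stress median is 3.04.

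Among genes that act with the members, 60 identifiers in 5 lists were tested, and 1 was called higher and 0 lower, against the 1.02% and 2.38% of all genes. At an unadjusted p under 0.05 the lists held 5 higher and 1 lower, against 8.13% and 10.6%. The called gene was among the 12 SR protein kinases and nuclear importins. It was TNPO1 (chr5:72816312-72916733, plus strand), transportin, which carries hnRNP A1 and its relatives into the nucleus. TNPO1 was at 228, 221.5 and 220.8 CPM in the controls and at 267.7, 265.6 and 281.1 CPM in the induced libraries. Each induced library was above each control, replicate 3 being the highest. Its log2 fold change was 0.28 ± 0.06 (SE) with an edgeR adjusted p of 0.0463, which became 0.111 with library size only, 0.128 with upper-quartile scaling, 0.101 with the replicate block and 0.0729 to 0.263 when any library other than induced replicate 3 was left out. SRPK1, the kinase that loads SR proteins for import, and TNPO3, their importin, each had a log2 fold change of 0.19 and edgeR adjusted p-values of 0.163 and 0.135.

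In the other lists edgeR called 0 genes in either direction. Among hnRNP relatives and partners (13 identifiers tested), RALY, an hnRNP C relative, had the smallest p, at 93.19, 113.4 and 125.6 CPM in the controls and 130, 138.1 and 147.9 CPM in the induced libraries, with an edgeR adjusted p of 0.173. Of the 13 SR-related coactivators SRRM2, a speckle scaffold, had the smallest p, with a log2 fold change of -0.12 and an edgeR adjusted p of 0.4. Of the 10 NMD factors it was SMG9, a subunit of the SMG1 kinase complex, at -0.11 and an edgeR adjusted p of 0.494. At an unadjusted p under 0.05 these 3 lists held 1, 0 and 0 genes higher and 0 lower, against 8.13% and 10.6% of all genes. Over all 5 lists DESeq2 called 2 of 60 higher and 1 lower, against 3.11% and 4.12% of all genes.

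The cell-type splicing regulators (12 tested) held the widest difference, with 0 called in edgeR. At an unadjusted p under 0.05 they held 1 gene higher and 1 lower, against 8.13% and 10.6% of all genes. MBNL3 (chrX:132369317-132489968, minus strand), a muscleblind protein, was at 137.9, 127 and 122.8 CPM in the controls and at 89.3, 85 and 46.41 CPM in the induced libraries. The groups did not overlap, and replicate 3 was by far the lowest. The log2 fold change was -0.81 ± 0.22 (SE) with an edgeR adjusted p of 0.0965. It passed the test with DESeq2 (adjusted p 0.0125) and, in edgeR, with no count filter (adjusted p 0.0367), with the replicate block (0.0409) and without replicate 3, at a log2 fold change of -0.56 and an adjusted p of 0.00466. RBFOX1, ESRP1, KHDRBS2 and SRRM4 did not pass the filter on low counts.

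Most members share an annotation that gene-level counts cannot resolve. In GENCODE release 44, 31 of 39 members (79.5%) have at least 1 transcript annotated for NMD, against 45.7% of 14865 tested protein-coding genes, and all 12 SR genes do. HNRNPAB, HNRNPF and PTBP3 are among the members without one. The shares were not adjusted for the number of annotated transcripts, a median of 13 per member. Retained-intron transcripts are annotated for 30 of 39 members, against 55.9% of those genes. The deposited counts sum all exons of a gene, so the productive and NMD transcripts of a member were not separated here, and a level total of counts does not give the share of either.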

How the data were processed

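The authors deposited, for each library, estimated counts of read pairs per gene, counted on exons of GRCh38 without normalization. Per the submitters' notes and the file headers, reads were aligned with STAR 2.7.1a and unique alignments were counted with featureCounts. The notes name version 1.5.1 and the headers version 1.6.4, with pairs that overlap several genes shared in equal fractions and no strand option. The study's methods list a strand option as well, and an option that also counts reads with several alignments. Which options gave the deposited values was not settled, and the values were used as deposited. The headers also list 92 spike-in rows, which held 0 counts and were left out. Groups and replicate numbers came from the sample titles. The replicates are described as independent experiments by the study, and the labels themselves do not name separate cultures, so p-values measure the spread between these libraries.

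The estimated counts were rounded. A gene was kept where 3 or more libraries had 10 or more counts, which left 29086 genes. These were fitted with the quasi-likelihood method of edgeR 4.0.16 (R 4.3.3) after TMM scaling, on all 6 libraries and without a block, and p-values were adjusted by Benjamini-Hochberg over the genes kept, at 0.05. The standard error is the log2 fold change divided by the square root of F. CPM are TMM-normalized. Levels between genes are CPM per kilobase of exon, since genes under 500 bases held 49.5% to 54.6% of TPM. Ratios of pairs were tested with an exact two-sided permutation over libraries. The edgeR test was checked on simulated data with larger fold changes than any member showed and without an outlying library. That check does not cover changes as small as those of the members.

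The members and gene lists were chosen with earlier results of these data known, and the lists were written from general knowledge. Values are given for members past the threshold, the 8 with the smallest p, the highest member of each family by TPM, the lowest member, the PTB genes, the 3 pairs with the largest ratio differences and, in each list of partners, the genes past the threshold or else the one with the smallest p. HNRNPD, HNRNPR, HNRNPU, TRA2B, HNRNPA2B1, SRSF1, SRSF3, SRSF10, SRPK1 and TNPO3 were named after their values were seen. The alternatives tried were DESeq2 1.42.0, scaling by library size or by upper quartile, a filter of 100 counts in each library or none, a replicate block, added pseudogene counts, adjusted p thresholds of 0.01 and 0.1, and each library left out. Symbols came from GENCODE release 44 and promoters from RefSeq.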

Additional observations from a re-analysis of the deposited data

How the results depend on the processing

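The count of members called (0 higher, 0 lower) was the same at 0.05 with every alternative that kept all 6 libraries. In the main fit it was also the same with the thresholds of 0.01 and 0.1. With all 6 libraries, HNRNPAB had an adjusted p of 0.0704 in DESeq2 and 0.0947 in edgeR with no count filter. Those 2 fits would call it at 0.1. Leaving out single libraries gave 0 to 7 members higher, with 7 only without MYCN-induced replicate 3, and medians of 0.03 to 0.16. With that library left out, 3 alternatives were chosen after seeing the data. They gave 4 members higher with library size only (3.17% of all genes), 14 with DESeq2 (6.61%) and 10 with the replicate block (7.91%). The medians were 0.16, 0.17 and 0.16. With all libraries, the replicate block gave 0 members called and a median of 0.05. Deviations of same-numbered libraries correlated at 0.216, -0.0188 and 0.0739 (3 pairs). Those of libraries with different numbers correlated at -0.193 to 0.0815. So few pairs cannot decide whether libraries with the same number were paired. In the lists of partners, 1 gene was called higher. It was 2 with DESeq2, 0 with the replicate block and 0 to 3 with single libraries left out (3 without MYCN-induced replicate 3, otherwise 0). The 0 genes called lower became 1 with DESeq2, 1 with the replicate block and 0 to 2 with single libraries left out (2 without MYCN-induced replicate 3). HNRNPH2 turned to -0.02 with library size only and upper-quartile scaling, to -0.00 with at least 100 counts and to -0.04 without MYCN-induced replicate 2. Without MYCN-induced replicate 3, PTBP2 was 0.05 and TRA2A 0.00, within ranges over single libraries left out of -0.16 to 0.05 and -0.11 to 0.00. Differences of log2 ratios that changed sign ranged from -0.17 to 0.15 for PTBP3/PTBP1 (0.15 without control replicate 1), from -0.05 to 0.07 for HNRNPUL1/HNRNPU (-0.05 without control replicate 1, -0.02 without MYCN-induced replicate 3), from -0.08 to 0.00 for HNRNPA2B1/HNRNPA1 and from -0.14 to 0.00 for SRSF1/HNRNPA1, both at 0.00 without MYCN-induced replicate 3. Over single libraries left out, PTBP2/PTBP1 ranged from -0.52 to -0.20, HNRNPH2/HNRNPH1 from -0.32 to -0.07 and PCBP2/PCBP1 from -0.42 to -0.10. Without control replicate 1, PTBP1 was 0.14, PCBP1 0.19, HNRNPH1 0.08 and HNRNPUL1 0.11. The cause was not tested, and depth was not varied. TNPO1 lost its call with the replicate block, and MBNL3 gained one.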
